A study of Mus musculus with 4 samples.

Results

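The B cell receptor complex and its signalling genes were described as 38 genes, which is 38 of the 29870 gene names on the array. They were chosen by name: a probe belonged to the set where its gene name, in its older or current form, was one of the 38. This gave 57 of 39429 probes, with 1 probe for 21 genes and several for 17. The RNA came from spleen B cells, isolated with magnetic beads and kept in culture for 3 days with antibodies to IgM and to CD40, each at 10 µg/mL. The donors were male mice, either C57BL/6 (labelled WT) or lacking the atypical chemokine receptor gene Ackr4 (labelled Ackr4ko). The labels name no other allele and do not say whether the deletion is confined to a cell type. There were 2 independent experiments with different donors, and each gave 1 Ackr4ko array (donors of 73 and 71 days in experiments 1 and 2) and 1 WT array (77 and 74 days). Both genotypes received the same stimulus, and no unstimulated culture was measured.

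The B cell receptor is a membrane immunoglobulin held together with the signalling chains Cd79a and Cd79b. On antigen binding, Src family kinases phosphorylate these chains, Syk is recruited, and Syk and Btk, assembled on the adaptor Blnk, activate the phospholipase Plcg2. The phospholipase product diacylglycerol drives the PKC, Bcl10-Malt1 and Ras branches. Inositol trisphosphate opens calcium stores through Itpr channels, Stim1 and Orai1 refill them, and calcium lets calcineurin move the NFAT factors into the nucleus. Anti-IgM engages this receptor directly, so the cultures had been under its stimulus throughout.

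Values are log2 processed signal, scaled so that the 75th percentile is the same on every array, and are called scaled log2 signal here. They compare arrays for 1 probe and do not rank genes by amount. A gene is represented by its brightest probe that was well above background on at least 2 arrays. Of the 38 genes, 37 could be tested, and all 37 were above background on all 4 arrays. The exception was Lcp2, an adaptor best known from T cells, whose 2 probes were not well above background on any array. The 75th percentile of the raw signal was 740 to 1277 across arrays. The array labelled WT replicate 2 had 6.24% of its spots marked as outliers against 1.79% to 2.12% on the others, and values without it are given below. Ackr4 itself was not well above background on any of the 4 arrays (0), so it could not check the genotype labels.

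The genotype labels conflict between the deposited files. Each column of the authors' value table matched the scanner array of the other genotype in its experiment (SD of the log2 difference 0.0203 to 0.12 over 16207 probes) and not the array of its own label (0.450 to 0.554). Every genotype direction below carries the labels of the scanner files and has the opposite sign if the value table is right. The mean difference between experiments does not depend on this, but its values for a single genotype label do and would be exchanged. The labels do not say how many mice each array represents, and p-values rest on the spread between these 4 arrays. Where genotype and experiment were both in the model on this scaling, limma gave every gene the same standard error (0.348, or 0.354 for every probe). Those p-values rest on a spread pooled over all genes and not on a gene's own.

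The genes that lay furthest below 0 in the genotype comparison were Btk, the kinase that activates Plcg2, and Rcan1, a calcineurin inhibitor gene with an internal start site known to be driven by NFAT. Their promoters are shown as reference for these genes (RefSeq, GRCm38.p6, 300 bases that end shortly after the start, 5′ to 3′ on the gene's strand). In the Btk promoter at chrX:134583091-134583390, minus strand, capitals mark the letters of a PU.1 core, GAGGAA on either strand. Rcan1 has another promoter, at chr16:92466120-92466419, with 6 GC boxes and no NFAT core, which is not shown. Which start the signal of the Rcan1 probe came from was not tested. In the internal Rcan1 promoter at chr16:92400029-92400328, minus strand, capitals mark the NFAT core GGAAAA and the GC box GGGCGG on either strand.
Btk promoter: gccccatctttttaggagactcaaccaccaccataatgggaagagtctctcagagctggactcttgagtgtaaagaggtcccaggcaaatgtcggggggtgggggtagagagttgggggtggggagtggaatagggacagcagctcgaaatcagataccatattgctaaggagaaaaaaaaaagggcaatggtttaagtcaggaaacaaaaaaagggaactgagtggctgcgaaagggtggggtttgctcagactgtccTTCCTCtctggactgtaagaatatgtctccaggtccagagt
Rcan1 internal promoter: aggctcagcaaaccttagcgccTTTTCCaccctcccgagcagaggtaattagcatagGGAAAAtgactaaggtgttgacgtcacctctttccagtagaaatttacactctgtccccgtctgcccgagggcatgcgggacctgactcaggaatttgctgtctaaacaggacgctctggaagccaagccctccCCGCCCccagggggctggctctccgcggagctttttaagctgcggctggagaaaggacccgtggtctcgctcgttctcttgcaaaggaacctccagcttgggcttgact
Promoters of 31 of the genes were used, 43 in all. The ETS core GGAAGT was in 22 of them (51.2%, against 23.8% of all 32851 promoters of that length), GAGGAA in 16 (37.2% against 28.3%) and GGAAAA in 7 (16.3% against 23.4%). The GC box was in 21 (48.8% against 35.7%), TATAAA in 10 (23.3% against 13.6%) and the octamer ATGCAAAT in 3 (6.98% against 1.74%, in Blnk, Orai1 and Prkcb). All motifs were sought on both strands. A gene with several promoters counts more than once, and some promoters of Vav3 and of Ptprc overlap. GAGGAA and GGAAAA overlap where they occur as GAGGAAAA, as in a Syk promoter. These are letter matches and were not set against the arrays.

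Syk and Btk each had a pair of probes, which behaved alike for Btk and differently for Syk. The first 30 of the 60 bases of each probe show that they read separate stretches of sequence. The longest run that the pair shared was 5 bases for Btk and 6 for Syk. Positions are on mm9, and exon or UTR was not assigned because no annotation of that build was used.
Btk probe at transcript base 1665, chrX:131083955-131084014, minus strand: caaagatgtctgtgaagcaatggaatactt
Btk probe at transcript base 2360, chrX:131076995-131077054, minus strand: agactcctaacagactgaattggggatggg
Syk probe at base 2460 of its cDNA, chr13:52738924-52738983, plus strand: gaccacaggctcgatccaattataattaaa
Syk probe at transcript base 5029, chr13:52744088-52744147, plus strand: cccagagcagcacacagtgattccctgtta
The brighter probe, at base 2360 for Btk and at base 5029 for Syk, stands for the gene in what follows.

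None of the 37 tested genes differed between the genotypes past the threshold (0 of 37, limma, Benjamini-Hochberg adjusted p under 0.05), where the same fit called 2 of 15961 genes (0.0125%). At an unadjusted p under 0.05 the count was also 0, against 732 of all genes. The standard errors of the differences were 0.32 to 0.51, and the 95% interval lay within 2-fold in both directions for 16 genes (43.2%, against 41.5% of all genes). For the other 21, a 2-fold difference in at least 1 direction lay inside the interval. The differences ran from -0.75 for Btk to 0.47 for Cblb.

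**Figure D1:**
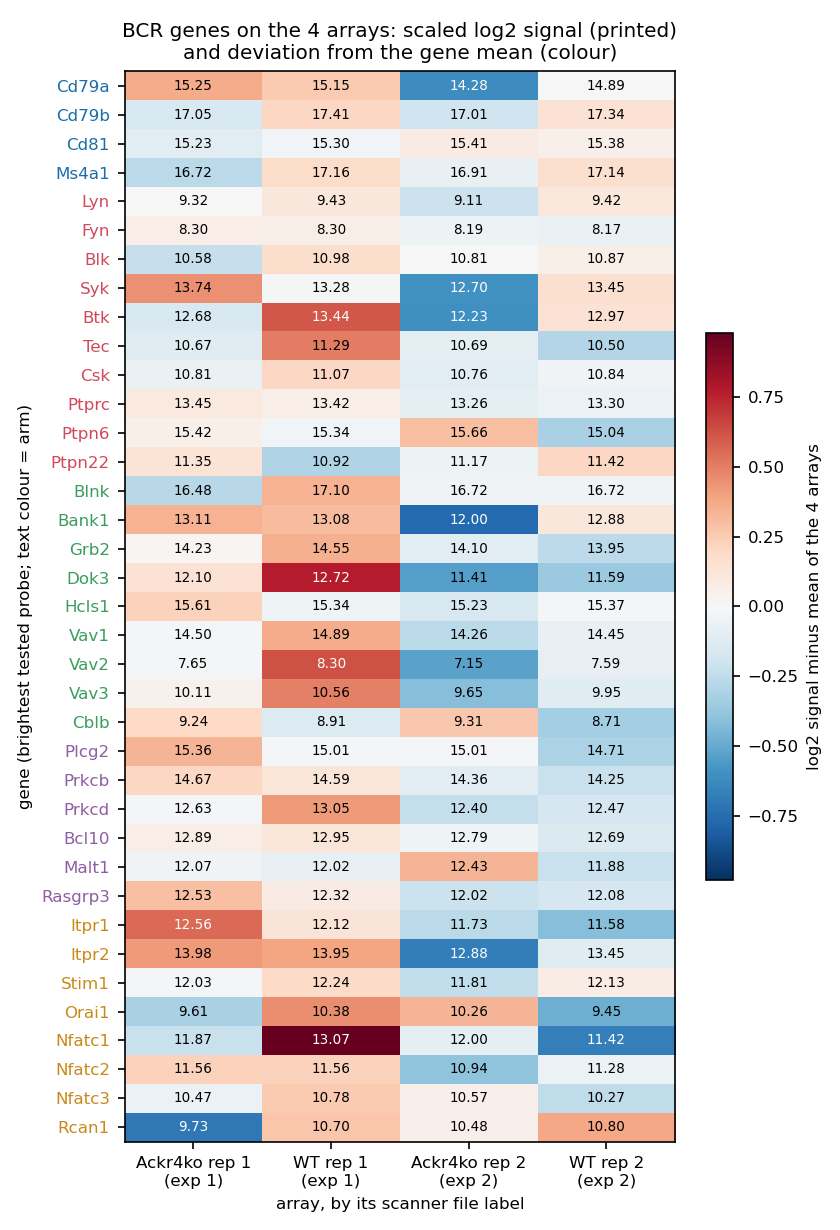
Scaled log2 signal of the 37 tested genes on the 4 arrays (printed in each cell), with colour for the deviation from the gene's own mean over the arrays and gene names coloured by their place in the pathway. Btk and Cblb are each separated by genotype label on all arrays, while Nfatc1 runs from 11.42 to 13.07 on the 2 WT arrays alone.

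Among the receptor chains and their membrane partners, all 4 genes had mean differences below 0 (median -0.29), and none passed the test. Cd79b, the Ig-beta chain, read 17.05 and 17.01 on the Ackr4ko arrays and 17.41 and 17.34 on the WT arrays of experiments 1 and 2. The difference was -0.34 (SE 0.32, 95% interval -1.07 to 0.38), nearly equal in both experiments at -0.35 and -0.33. Ms4a1, which encodes the B cell antigen CD20, read 16.72 and 16.91 on Ackr4ko against 17.16 and 17.14 on WT, a difference of -0.34. In both genes the Ackr4ko arrays lay below both WT arrays. Cd79a, the Ig-alpha chain, did not separate the genotypes. It read 15.25 and 14.28 on Ackr4ko and 15.15 and 14.89 on WT, with differences of 0.11 in experiment 1 and -0.61 in experiment 2. Its second probe gave -0.13 and -0.70. Cd81, a tetraspanin of the B cell membrane, was the steadiest of the 4, at 15.23 to 15.41 on all arrays.

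Of the 10 kinases and phosphatases, 7 had differences below 0 (median -0.16), and again none passed the test. Btk read 12.68 and 12.23 on the Ackr4ko arrays and 13.44 and 12.97 on the WT arrays. Both Ackr4ko arrays lay below both WT arrays, and the difference was -0.76 in experiment 1 and -0.74 in experiment 2. The mean difference was -0.75 (SE 0.35, 95% interval -1.56 to 0.06, limma adjusted p = 1.00, 0.309 to 1.00 over the alternatives). With the experiment as a block the unadjusted p of Btk was 0.0311 and the adjusted p 0.368, in a fit that called 532 genes (3.33%) and none of these (0 of 37). The second Btk probe read 9.51 and 9.25 on Ackr4ko against 10.42 and 10.18 on WT, with differences of -0.91 and -0.93. Both probes thus put Btk lower on the Ackr4ko arrays by a similar amount, short of the threshold.

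The Src family kinases, which start the cascade, had small differences. Lyn read 9.32 and 9.11 on Ackr4ko and 9.43 and 9.42 on WT, a difference of -0.21, and Blk differed by -0.23. Fyn read 8.17 to 8.30 on all arrays, a difference of 0.01. Syk, the kinase recruited to the phosphorylated receptor chains, changed direction between experiments: 13.74 against 13.28 in experiment 1 and 12.70 against 13.45 in experiment 2, Ackr4ko first, or 0.46 and -0.74. Tec, a relative of Btk, did so too, at -0.62 and 0.20. Csk, which restrains the Src kinases, differed by -0.17. Ptprc, the CD45 phosphatase that activates them, was level at 13.26 to 13.45. Ptpn6, which encodes the inhibitory phosphatase SHP-1, read 15.42 and 15.66 on Ackr4ko and 15.34 and 15.04 on WT, a difference of 0.35. Ptpn22, another phosphatase that acts on Src kinases, had opposite differences of 0.43 and -0.25.

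Of the 9 tested adaptors, exchange factors and the ubiquitin ligase, 7 lay below 0 (median -0.31). The 3 Vav exchange factors, which link the receptor to Rac and the cytoskeleton, were lower on the Ackr4ko array of each experiment. Vav2 read 7.65 and 7.15 on Ackr4ko and 8.30 and 7.59 on WT, a difference of -0.54 (SE 0.38). Vav3 differed by -0.37 and Vav1 by -0.29. For all 3, the Ackr4ko array of experiment 1 lay above the WT array of experiment 2, so the genotypes overlapped. Dok3, an inhibitory adaptor, differed by -0.40, with -0.63 and -0.18 in the experiments. Blnk read 16.48 against 17.10 in experiment 1 and 16.72 on both arrays of experiment 2. Bank1, a B cell scaffold that binds Lyn and calcium channels, was the reverse, level in experiment 1 (13.11 and 13.08) and lower on Ackr4ko in experiment 2 (12.00 against 12.88, a difference of -0.87). Grb2, the general adaptor to Ras, differed by -0.09 and Hcls1, a cortactin relative of blood cells, by 0.07. Cblb, the ubiquitin ligase that limits receptor signalling, stood on the other side, with 9.24 and 9.31 on Ackr4ko and 8.91 and 8.71 on WT. Its difference of 0.47 (SE 0.32, 95% interval -0.27 to 1.20) was the highest of the 37, did not pass the test, and was 0.12 at a second, fainter probe. In experiment 2 the share of that probe's spots well above background was only 0.25 (Ackr4ko) and 0 (WT), so its value is limited by low signal.

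The 6 genes of the phospholipase, PKC, Bcl10-Malt1 and Ras branches had 5 differences above 0 and a median of 0.09, where all genes had a median of 0.08 and 60.3% above 0. With quantile normalization Prkcb (-0.06), Bcl10 (-0.10) and Rasgrp3 (-0.00911) also lay below 0. Plcg2, which splits the lipid into both messengers, read 15.36 and 15.01 on Ackr4ko and 15.01 and 14.71 on WT, with differences of 0.35 and 0.30. Malt1, the paracaspase of the complex that leads to NF-kappaB, read 12.07 and 12.43 against 12.02 and 11.88, a difference of 0.30 that came mostly from experiment 2 (0.05 and 0.55). Bcl10, its partner, read 12.69 to 12.95 on all arrays, with a difference of 0.02. Prkcb, the PKC of this pathway, differed by 0.10 and Rasgrp3, a diacylglycerol-driven Ras activator, by 0.08. Prkcd, a PKC linked to B cell tolerance, lay below 0 under both scalings, at -0.25 and -0.37. None of the 6 passed the test.

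In the calcium and NFAT arm, 6 of 8 genes lay below 0 (median -0.22). Rcan1 read 9.73 and 10.48 on Ackr4ko and 10.70 and 10.80 on WT. Both Ackr4ko arrays lay below both WT arrays, the differences were -0.98 and -0.33, and the mean was -0.65 (SE 0.37, 95% interval -1.49 to 0.18, limma adjusted p = 1.00, 0.518 to 1.00 over the alternatives). The calcium entry genes did not move as a pair. Stim1, the sensor of the store, differed by -0.21 and -0.32, with the Ackr4ko arrays below both WT arrays. Orai1, the channel it opens, read 9.61 against 10.38 in experiment 1 and 10.26 against 9.45 in experiment 2, Ackr4ko first. Its differences of -0.77 and 0.81 cancelled at this probe. Nfatc1, which is induced by its own pathway, had the widest spread within a genotype: 13.07 and 11.42 on the WT arrays, 11.87 and 12.00 on the Ackr4ko arrays. Its differences were -1.20 and 0.58. Nfatc2 differed by -0.17 and Nfatc3 by -0.01. The store release channels Itpr1 and Itpr2 differed by 0.29 and -0.27.

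**Figure D2:**
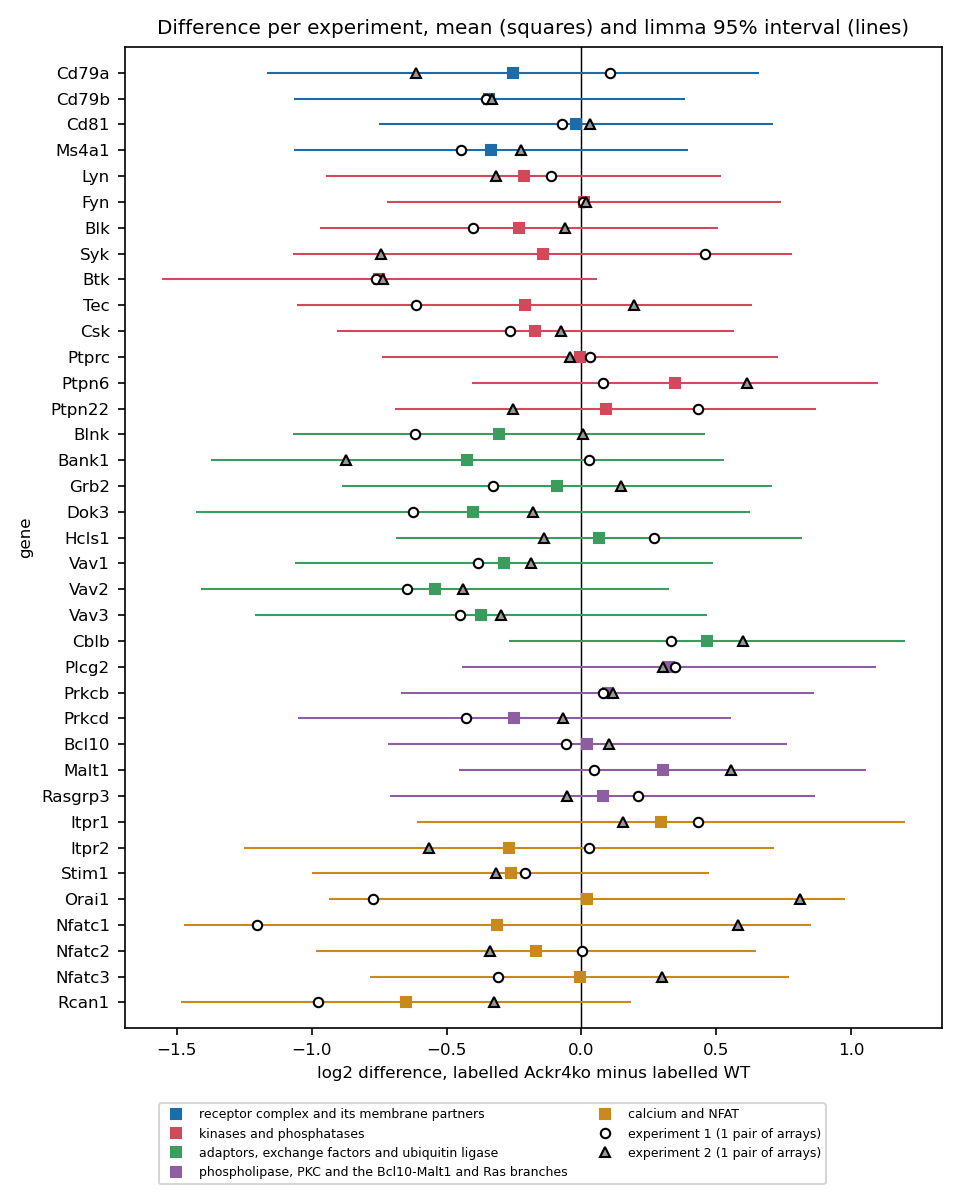
Log2 difference between the arrays labelled Ackr4ko and WT for each tested gene, with the 95% interval from limma and the difference in each experiment as separate points. All 37 intervals include 0, and Btk at -0.75 and Rcan1 at -0.65 lie furthest to the left.

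Across the 37 genes, 25 mean differences were below 0 and 12 above, against 39.7% of all genes below 0. The median was -0.17, where that of all genes was 0.08, and 30 of the 37 lay below the latter. Without the filter on dim probes the median of all genes was -0.26, and 13 of the 37 lay below it. That median takes in genes not well above background and is not a baseline for the tested genes. Lcp2, for example, read 2.41 and 3.33 on Ackr4ko against 2.76 and 4.64 on WT at its probe at base 1857. By experiment, 13 genes were lower on the Ackr4ko array in both (35.1%, background 20.9%), 7 were higher in both (18.9%, background 33%) and 17 changed sign (45.9%, background 46.1%). Both Ackr4ko arrays lay below both WT arrays for 8 genes (21.6%, background 10%), namely Cd79b, Ms4a1, Lyn, Blk, Btk, Csk, Stim1 and Rcan1. They lay above them for 3 (8.11%, background 19%), namely Ptpn6, Cblb and Malt1. In no gene did both experiments show a 2-fold difference of the same sign (0 of 37, background 1.79%). These counts describe genes that share their arrays and are not a test of the set. They also depended on single arrays: 29 genes lay below 0 when WT replicate 2 was dropped and 19 when WT replicate 1 was, while dropping an Ackr4ko array left 30 (replicate 1) or 20 (replicate 2). Scaling moved them as well, to 31 with quantile normalization and 18 when arrays were centred on their median, a shift that moved all genes (median 0.27).

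**Figure D3:**
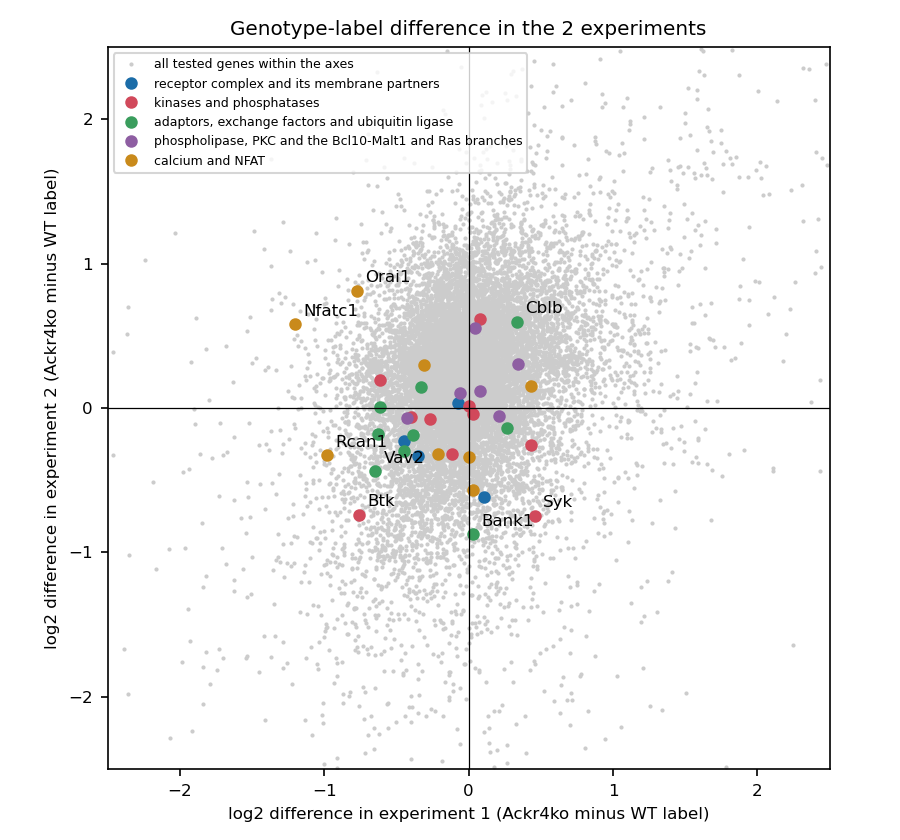
Log2 difference between Ackr4ko and WT in experiment 1 (horizontal) against experiment 2 (vertical), 1 point for each tested gene, coloured by its place in the pathway. The 13 genes at the lower left were lower in both experiments, the 7 at the upper right higher in both, and the other 17 changed sign, with Orai1 and Nfatc1 furthest out.

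Where a gene had several tested probes (14 genes), their mean differences lay within 0.5 of each other in 13, including Cblb with its dim second probe. The exception was Syk. Its probe at base 2460 is named by the array after Syk through a cDNA clone and read 7.43 and 9.07 on the Ackr4ko arrays against 5.38 and 7.18 on the WT arrays. The higher reading was on the Ackr4ko array of each experiment, by 2.05 and 1.89, although Ackr4ko replicate 1 and WT replicate 2 nearly met. This probe was singled out after its values were seen. Its mean difference was 1.97 (SE 0.66, 95% interval 0.48 to 3.45, limma adjusted p = 0.816) in a fit over 20862 probes that called 5 (0.024%). With the experiment as a block, where all probes share an SE of 0.354, its limma adjusted p was 4.09e-06, in a fit that called 661 probes (3.17%). It was 0.00469 with the block after normexp background correction and 0.326 with the block after quantile normalization. On WT replicate 2 only 50% of its spots were well above background and the spots had an SD of 1.15. The adjusted p without that array was 0.00631, and it was 0.298 to 1.00 when 1 of the other arrays was dropped. The probe also differed between experiments, by 1.72 (limma adjusted p = 0.000196). The probe at base 5029 showed none of this, with its differences of 0.46 and -0.74. Which Syk transcripts the fainter probe reads was not tested.

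**Figure D4:**
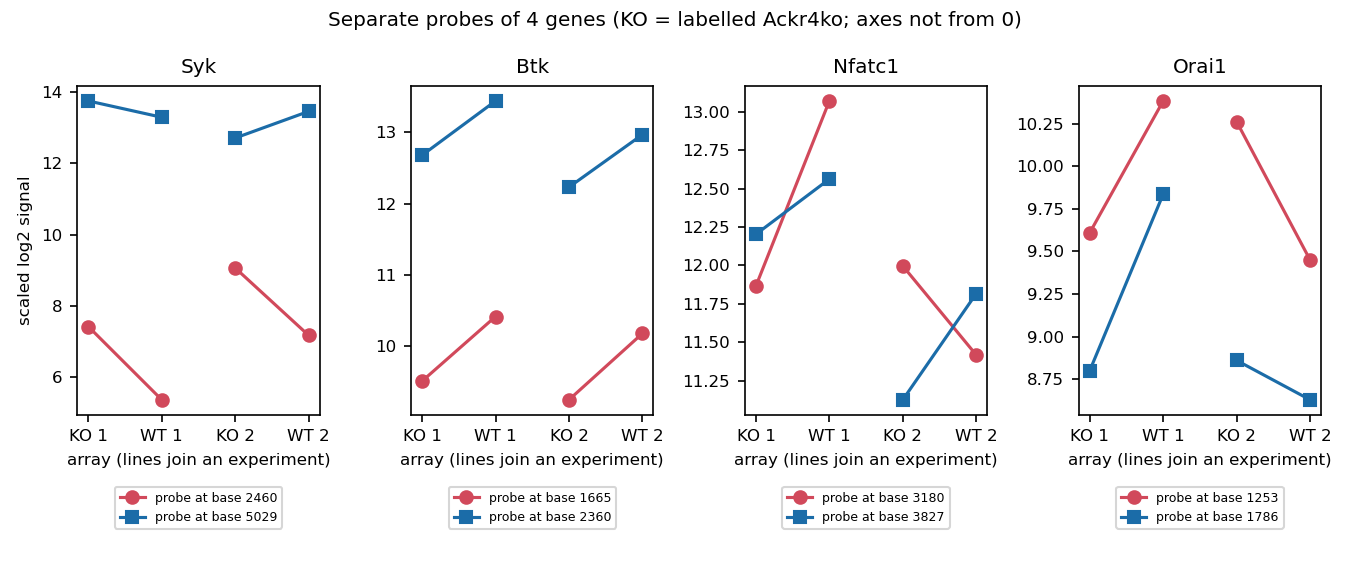
Scaled log2 signal of the separate probes of Syk, Btk, Nfatc1 and Orai1 on the 4 arrays (KO for Ackr4ko), with lines joining the arrays of an experiment and axes that do not start at 0. The Btk probes run in parallel, the fainter Syk probe is higher on the Ackr4ko array in both experiments while the brighter one is not, and the Nfatc1 probes part in experiment 2.

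The probes of Nfatc1 disagreed within experiments: the second, at transcript base 3827, gave -0.36 and -0.69 where the first gave -1.20 and 0.58. For Orai1 the second probe gave -1.04 and 0.23, the same signs as the first, but its mean difference was -0.40 against 0.02. The pairs for Bank1 (-0.05 and -0.88 at the fainter probe), Tec (-0.74 and 0.31) and Vav1 (-0.23 and -0.17) repeated the brighter probes. Probes of 1 gene were read from the same RNA and are not replicates of the genotype. Of the 3 Stim1 probes, 2 share 51 bases.

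Experiment 2 was then compared with experiment 1, with the genotype in the model. None of the 37 genes passed the threshold (0), where the fit called 650 of 15961 genes (4.07%). At an unadjusted p under 0.05 there were 4: Dok3, Itpr2, Nfatc1 and Itpr1, against 2521 of all genes. Dok3 differed by -0.91 (SE 0.35, as for every gene in this fit, limma adjusted p = 0.126), from 12.10 and 12.72 in experiment 1 to 11.41 and 11.59 in experiment 2. All arrays of experiment 1 lay above those of experiment 2. Itpr2 differed by -0.80 (adjusted p = 0.206), with 13.98 and 13.95 followed by 12.88 and 13.45. Itpr1 differed by -0.69 (adjusted p = 0.310), with 12.56 and 12.12 followed by 11.73 and 11.58. In both calcium release channels, too, the experiments did not overlap. Nfatc1 differed by -0.76 (adjusted p = 0.240), and this came from the WT arrays (-1.65), since the Ackr4ko arrays differed by 0.13.

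Of the 37 genes, 31 were lower in experiment 2 (83.8%, background 48.2%), and 22 were lower within both genotype labels (59.5%, background 31.9%). The median was -0.20 against 0.02 for all genes, and -0.26 on the WT and -0.19 on the Ackr4ko arrays. With quantile normalization it was -0.42 against -0.03, and with array medians -0.43 against -0.20. The count of 31 ran from 25 (without either WT array) to 36 (array medians). All 9 adaptors and exchange factors were lower (median -0.37), as were 7 of 8 calcium and NFAT genes, 5 of 6 in the phospholipase branch and 8 of 10 kinases and phosphatases (median -0.13). The receptor chains and partners were divided, with 2 lower, 2 higher and a median of 0.015. The exception in the calcium arm was Rcan1, at 0.43. Cd79a (-0.62) and Bank1 (-0.65) owed most of their difference to the Ackr4ko arrays, at -0.98 and -1.10 against -0.26 and -0.20 on WT. Donor, culture and every other property of the experiments cannot be told apart here.

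**Figure D5:**
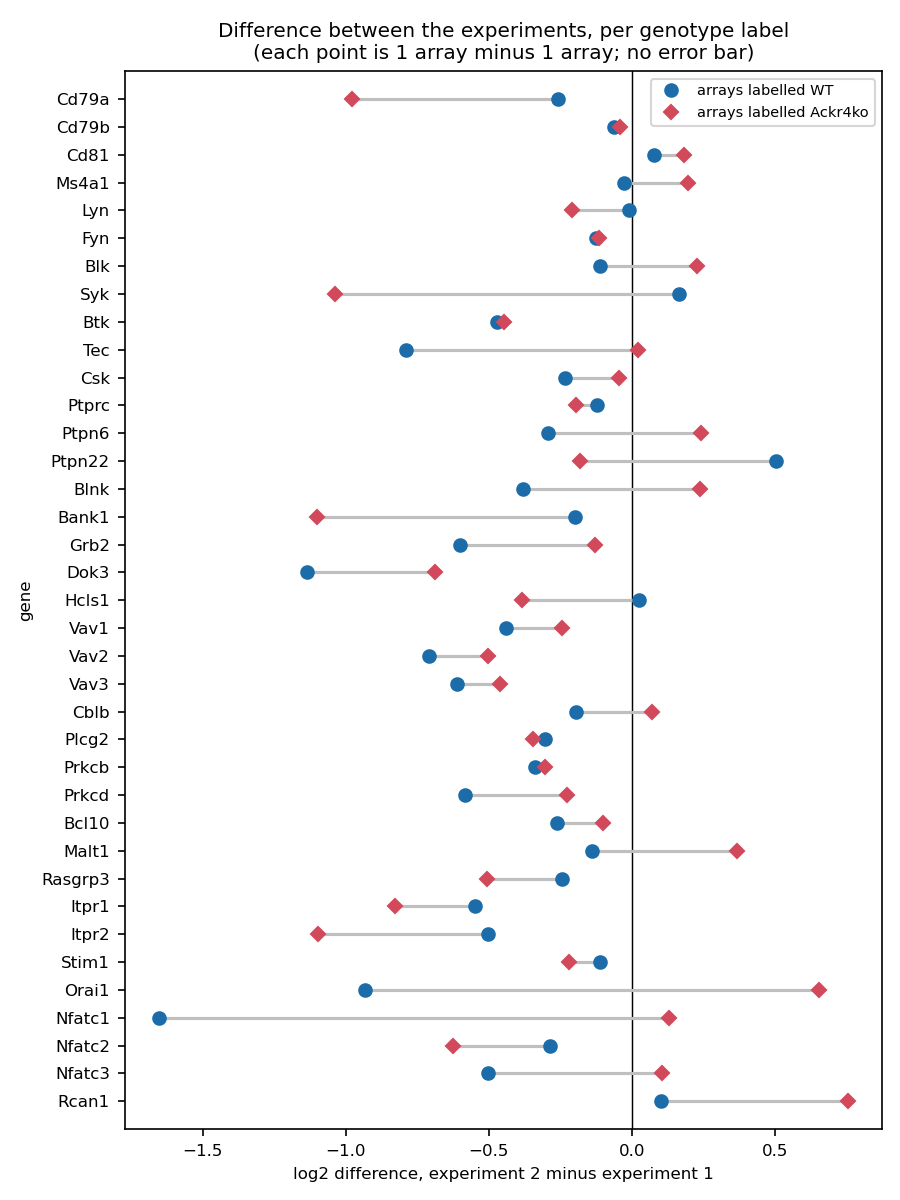
Log2 difference between experiment 2 and experiment 1 for each tested gene, drawn once for the WT arrays and once for the Ackr4ko arrays, each point being 1 array minus 1 array. For 22 genes both points lie left of 0, and Nfatc1 (-1.65 and 0.13) and Orai1 (-0.93 and 0.65) have the widest gaps between the labels.

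The cells carried the RNA of B cells: all 8 listed B cell genes were above background on all arrays. The summed scaled signal of that list, which includes Cd79a, Cd79b, Ms4a1 and Blnk, was lower on the Ackr4ko array of each experiment (423453 against 544545, and 418237 against 481934). In bulk RNA, fewer cells of a type and less RNA per cell cannot be told apart. The T cell list (7 of its 9 measured genes above background on all arrays) summed to 53216 and 62638 on Ackr4ko and 64234 and 69773 on WT. The macrophage list (5 of 7 above background) summed to 45078 and 36002 against 53492 and 57322, with Cd14 and Lyz2 not well above background on any array. Mpeg1 gave the largest part of this sum (14.00 to 15.11) and differed by -0.78. Adgre1 (-0.34) and Csf1r (-0.29) also lay below 0, and Cd68 (0.51) and Itgam (0.12) above. The dendritic list (3 of 6, Itgax and Xcr1 on none) gave 62663 and 75291 against 64479 and 62845, a sum carried by Siglech (15.66 to 16.03). Its other measured genes were higher on the Ackr4ko array of each experiment. Flt3 read 13.38 and 12.97 against 12.08 and 12.13, a difference of 1.07, and Zbtb46 read 7.87 and 8.66 against 7.21 and 7.34. Batf3 read 5.65 and 7.25 on Ackr4ko and was not well above background on WT. The Flt3 difference was larger than that of any of the 37 genes. The plasma cell list (4 of 5) gave 23098 and 26153 against 23438 and 21679. Of the 4 NK genes only Prf1 was above background. The B cell, T cell and macrophage sums thus moved with the genotype label in the same direction as Btk, Cd79b and Rcan1, and Flt3, Zbtb46 and Batf3 in the opposite one. Their part in the differences was not tested.

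The rest of the pathway was followed through 86 further genes, of which 81 were tested. None passed the threshold between genotypes (0, limma), 2 had an unadjusted p under 0.05, 45 differences lay below 0 and 36 above, and the median was -0.04. The 4 genes with the smallest p were Cd5, Orai2, Pik3r5 and Map2k1. Cd5, an inhibitory co-receptor of B-1 and T cells that is also in the T cell list, read 10.67 and 10.13 on Ackr4ko against 11.44 and 11.64 on WT, a difference of -1.15 (SE 0.35, limma adjusted p = 0.656, and 0.0324 with the experiment as a block). Orai2, a relative of Orai1 that tempers calcium entry, read 9.83 and 8.92 on Ackr4ko against 10.83 and 10.01 on WT, a difference of -1.04 (adjusted p = 1.00). Pik3r5, a regulatory subunit of PI3 kinase gamma, differed by 0.65, and Map2k1, the MEK1 kinase below Ras, by 0.53.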

How the data were processed

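Total RNA (50 ng, Cy3 label, 1 colour) from 4 cultures was read on Agilent arrays. Per the file headers and the submitters' processing notes, the authors' deposited files are Agilent Feature Extraction 10.7.3.1 output, with spot intensity as processed signal, corrected for background. The authors' deposited value table holds normalized intensity on a linear scale, with a median of 67 in every column. How it was normalized is not given in the sources used here, and its genotype direction could not be settled, so it served as an alternative.

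Control and outlier spots were left out, no spot was saturated (0), and the 4 spots of a probe were averaged. Scaled log2 signal is log2 processed signal minus the array's 75th percentile, plus 9.88. A probe was tested where 2 of 4 arrays had at least 50% of its spots well above background (20862 probes). Probes were named through RefSeq (28328 by accession, 429 by another accession, 3070 by symbol, 221 by synonym), and 7381 kept the array's name. Tests used the limma package (3.58.1, under R 4.3.3; lmFit with eBayes, both tails, Benjamini-Hochberg adjusted over all 15961 genes, called under 0.05), checked on simulated data. The number of arrays limits the precision. Replicate numbers are the stated experiments and pair the arrays (correlation of deviations 0.421), and the blocked fit is an alternative. Others changed scaling, background, filter, probe summary and arrays. All 38 genes are named, and from the list of 86 those called or the 4 smallest p. A called gene of that list is not reported here. Members and lists were chosen with earlier results of these data known.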

Additional observations from a re-analysis of the deposited data

How the results depend on the processing

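With 1 value per gene, none of the 37 tested genes was called between genotypes in any alternative (0 in each), nor was Lcp2, which was tested only without a filter. In fits over all probes the fainter Syk probe was called with the block and without WT replicate 2. The count over all genes (2) became 1 with quantile normalization, 188 with array medians, 19 with normexp background and 1 in the authors' value table. It was 0 in the probes above background on 4 arrays (524 at an unadjusted p under 0.05) and 0 without a filter on dim probes (296). With the replicate block it was 532, with 1 further pathway gene (Cd5), and with the block and quantile normalization, added after seeing the data, 0 (1446). Leaving out 1 array gave 1 to 122 (24 without WT replicate 1, 122 without WT replicate 2). The block changed no call among the 37 genes at their brightest probes.

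The median difference of the 37 tested genes (-0.17) was -0.25 with quantile normalization, with or without the block, 0.014 with array medians, -0.23 with the percentile taken over probe means (added later), and -0.017 to -0.31 without 1 array. It was 0.27 in the value table, where the genotypes are exchanged. Leaving that table aside, 15 genes kept their sign in every alternative, Btk, Rcan1, Cd79b and Cblb among them.

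Between experiments, the count over all genes (650) was 0 with quantile normalization (2320 unadjusted), 263 with array medians, 0 in the value table (2348), 0 with genotype left out of the model (1565) and 11098 without a filter. Of the 38 genes, 1 was called with normexp (Dok3, limma adjusted p = 0.0285), in a fit that called 654 of 15961 genes. Without a filter 1 was called (Lcp2, which was not above background). The causes were not tested. Without 1 array this comparison has no residual degrees of freedom, so values were computed with no test. Low signal limits Lcp2 and the fainter probes of Syk and Cblb, and 4 arrays limit every difference.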

Other observations

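Among the 81 further pathway genes, 3 passed the threshold between experiments, where the same fit called 650 of 15961 genes (4.07%). Of the 3, 2 are described. Sla2, an adaptor that dampens antigen receptor signalling, was higher in experiment 2 by 1.52 (SE 0.35, limma adjusted p = 0.00116), from 6.84 and 6.69 on Ackr4ko and WT to 8.26 and 8.32. Lilrb4a, an inhibitory receptor, differed by -2.86, from 8.46 and 9.68 to 6.24 and 6.17, with 1 WT array not well above background. Both moved the same way within each genotype label, while 57 of the 81 genes were lower in experiment 2 (70.4%, against 48.2% of all genes).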
